A study of Mus musculus with 62 samples.

Results

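The genes described are 10 long noncoding RNA genes that are often studied in brain and in cell nuclei: Meg3, Rian and Mirg from the imprinted Dlk1-Dio3 region, the nuclear RNAs Malat1, Neat1 and Miat, the small nucleolar RNA hosts Snhg11 and Gas5, and H19 and Pvt1. They were taken by gene name from the deposited gene abundance tables, and each name was found once, so that 10 of 53975 genes are described. Long RNA was measured by ribosomal RNA-depleted RNA-seq in 17 hippocampus libraries from mice and 14 libraries of HT-22 cells, an immortalised mouse hippocampal cell line. The 31 short-RNA libraries of the series were not used. Each value is a TPM, a level per transcript length within 1 library,, and "scaled TPM" is TPM divided by a median-of-ratios size factor of the library.

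The mice were of the strain APP NL-G-F, a knock-in line whose own App gene carries a humanised amyloid beta sequence and familial Alzheimer's disease mutations (called APP), or of the strain C57BL/6J (called Ctrl). Hippocampi of both sides were taken at 3, 6 or 12 months, with 3 libraries in each group except Ctrl at 3 months, which had 2. HT-22 cells first received a locked nucleic acid oligonucleotide (LNA) for 24 h, either one against Hsf1, the heat shock transcription factor, at 150 nM or a scramble sequence, whose labelled dose is 50 uM. They then received 30 uM of amyloid beta 1-42 (called 42) or of the reversed peptide (called R), both in DMSO. Each scramble group had 4 libraries and each anti-Hsf1 group had 3. These doses differ, so the oligonucleotide and its dose cannot be told apart. The labels do not say which libraries come from separate animals or cultures, so the p-values measure only the spread between libraries, which may be partly technical.

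Long noncoding RNAs act as RNA: they scaffold nuclear bodies, bind splicing factors or give rise to smaller RNAs when they are spliced and processed. Malat1 is held in nuclear speckles, Neat1 is the scaffold of paraspeckles and has a short and a long isoform, and Miat, also called Gomafu, forms its own nuclear domain in neurons. Meg3, Rian and Mirg are transcribed from the maternal chromosome across a region whose introns hold C/D box snoRNAs and many microRNA hairpins, and all of them are known for high expression in neurons.

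All 10 genes have the same coordinates in the files and in GENCODE M21 on GRCm38. Meg3 lies at chr12:109541001-109571726, Rian at chr12:109603940-109661716 and Mirg at chr12:109729764-109749460, all on the plus strand of chromosome 12. Malat1 (chr19:5795690-5802672) and Neat1 (chr19:5824708-5845478) are neighbours on the minus strand of chromosome 19. Miat lies at chr5:112213228-112229395 on the minus strand, H19 at chr7:142575529-142578143 on the minus strand and Pvt1 at chr15:62037986-62378096 on the plus strand. Gas5 lies at chr1:161034422-161038539 and Snhg11 at chr2:158375638-158386145, both on the plus strand, and GENCODE M21 types Snhg11 as protein coding.

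The annotated span of Mirg holds 14 microRNA genes and that of Rian holds 4, with 13 snoRNA genes beside them. The mature sequences below, from RefSeq on GRCm38.p6, belong to the Mirg hairpins over which the largest age differences were measured in APP mice, to a further Mirg hairpin that shares a seed with one of them and to the most abundant Rian hairpins. The seed (bases 2 to 8) is in capitals. RefSeq had an entry for 14 of the 14 Mirg hairpins and for 3 of the 4 in Rian.
mmu-miR-382-5p: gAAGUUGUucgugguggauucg
mmu-miR-382-3p: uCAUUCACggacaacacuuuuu
mmu-miR-668-5p: gUAAGUGUgccucgggugagcaug
mmu-miR-668-3p: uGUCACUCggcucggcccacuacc
mmu-miR-485-3p: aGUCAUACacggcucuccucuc
mmu-miR-453: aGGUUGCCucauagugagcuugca
mmu-miR-496a-5p: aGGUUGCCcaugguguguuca
mmu-miR-341-5p: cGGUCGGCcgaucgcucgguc
mmu-miR-1188-5p: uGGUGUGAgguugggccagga
Of the mature sequences of these hosts, miR-453 and miR-496a-5p share the seed GGUUGCC, and no other seed printed here occurs more than 1 time among them. The libraries described here hold fragmented long RNA, so a value over a hairpin measures host or precursor RNA and not the mature microRNA.

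RefSeq promoter windows (250 bases before to 50 bases after an annotated start, GRCm38.p6) matched 7 of the 10 genes, with 9 windows in all. The 3 windows printed here each hold a full match to a motif of a stress- or signal-responsive factor, which is in capitals. The Meg3 window (chr12:109540746-109541045, plus strand) and 1 of the 2 Gas5 windows (chr1:161034916-161035215, plus strand) hold the palindromic cyclic AMP element TGACGTCA, at 57 and 46 bases before the start. The Rian window (chr12:109603695-109603994, plus strand) holds the heat shock element core GAANNTTC, at 102 bases before the start.
Meg3: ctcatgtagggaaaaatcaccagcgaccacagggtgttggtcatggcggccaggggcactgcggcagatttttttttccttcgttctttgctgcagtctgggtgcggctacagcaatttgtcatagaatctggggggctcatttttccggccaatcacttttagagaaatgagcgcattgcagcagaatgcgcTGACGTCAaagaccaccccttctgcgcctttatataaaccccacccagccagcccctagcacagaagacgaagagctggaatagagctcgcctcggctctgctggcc
Gas5: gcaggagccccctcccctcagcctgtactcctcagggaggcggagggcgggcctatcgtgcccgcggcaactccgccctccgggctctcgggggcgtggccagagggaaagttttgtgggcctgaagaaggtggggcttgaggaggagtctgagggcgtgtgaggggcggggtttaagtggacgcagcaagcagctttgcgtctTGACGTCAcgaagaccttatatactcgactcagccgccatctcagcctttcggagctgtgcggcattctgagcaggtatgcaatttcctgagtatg
Rian: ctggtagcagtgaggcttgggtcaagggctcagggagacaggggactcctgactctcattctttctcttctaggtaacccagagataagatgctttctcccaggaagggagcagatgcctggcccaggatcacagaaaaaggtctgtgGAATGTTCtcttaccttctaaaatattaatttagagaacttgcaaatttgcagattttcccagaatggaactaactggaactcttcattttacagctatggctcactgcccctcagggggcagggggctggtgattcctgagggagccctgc
Searched on both strands, the cyclic AMP element was in 2 of the 9 windows and in 1.79% of all 32851 windows. The heat shock core was in 1 of the 9 and in 7.86% of all. The AP-1 site TGANTCA, in 7.81% of all windows, and the E-box CACGTG, in 7.15%, were in 0 of the 9. None of these matches overlaps another of the motifs searched in the printed windows, and a match describes the letters only. Neat1, H19 and Pvt1 had no entry.

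In the hippocampus 9 of the 10 RNAs passed the filter of a mean TPM of at least 1. Malat1 was at a mean of 2283 TPM (range over the 17 libraries 1394 to 3262), rank 28 of all genes. Rian followed at 374.5 TPM (258 to 530.0, rank 96) and Meg3 at 241 TPM (134 to 378, rank 157). The ranges of Rian and Meg3 over the libraries overlapped, but Rian was above Meg3 in 17 of 17 libraries.

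Snhg11, a snoRNA host that brain expresses at high level, was at a mean of 139 TPM (80.9 to 215) and Gas5, a host of C/D box snoRNAs whose spliced RNA is degraded when translated, at 102 TPM (61.4 to 135). Meg3 was above Snhg11 in 17 of 17 libraries, and Snhg11 above Gas5 in 15 of 17. Miat was at 33.6 TPM (14.02 to 67.7) and Mirg at 17.7 TPM (10.3 to 24.9), with Miat the higher in 15 of 17 libraries. Pvt1, the noncoding neighbour of Myc, was at 8.73 TPM (4.69 to 12.9), and Neat1 at 7.35 TPM (3.49 to 16.7), and Pvt1 was the higher in 12 of 17 libraries. H19, an imprinted RNA of fetal tissues, was at 0.288 TPM. It was above 0 in 16 of 17 libraries with a highest value of 0.945 TPM, and it was not tested.

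HT-22 cells expressed only part of these RNAs. Meg3, Miat and H19 were listed at 0 in all 14 libraries, Rian and Mirg were above 0 in 1 library each (0.0550 and 0.0112 TPM), and Snhg11 was above 0 in 4 with a highest value of 0.0811 TPM. The other 4 were among the genes tested: Malat1 at a mean of 4584 TPM (rank 11), Neat1 at 365 TPM (rank 180), Gas5 at 139 TPM and Pvt1 at 23.3 TPM. The neighbours of Meg3 on chromosome 12 were low as well, with Dlk1 and Dio3 listed at 0 in every HT-22 library and Rtl1 at no more than 0.105 scaled TPM.

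**Figure D1:**
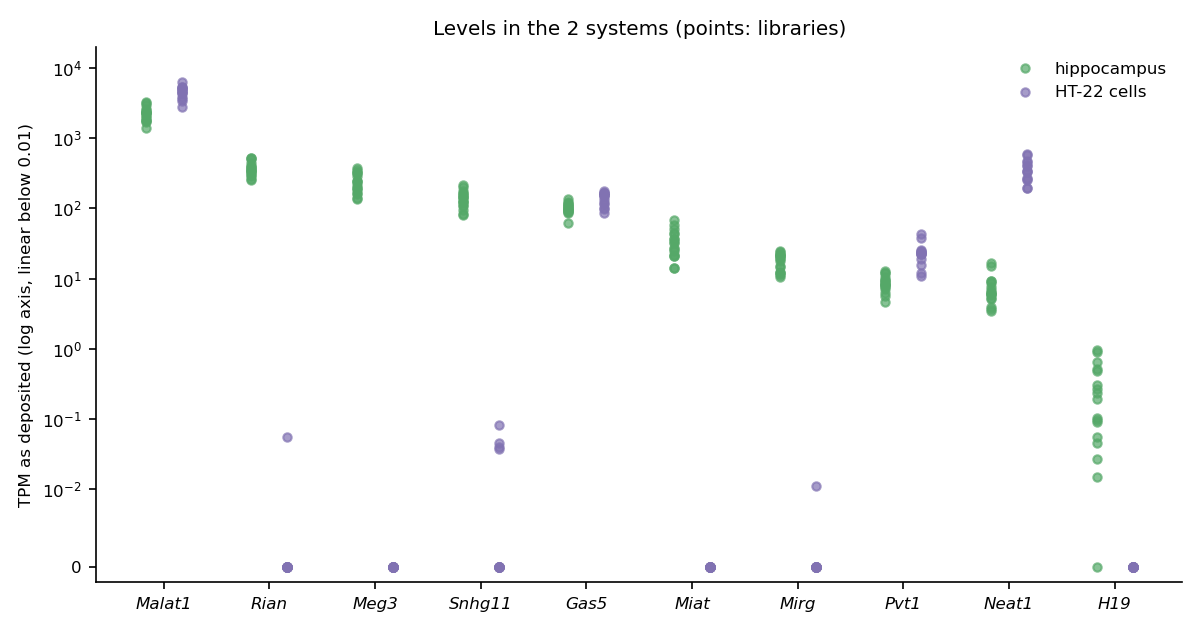
TPM as deposited (y axis, log scale above 0.01 and linear below) of the 10 long noncoding RNAs in 17 hippocampus libraries (green) and 14 HT-22 libraries (purple), 1 point for each library. Meg3, Miat and H19 sit at 0 in every HT-22 library, and Neat1 lies between 193 and 591 TPM there against 3.49 to 16.7 TPM in hippocampus.

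The labels call HT-22 a hippocampal line, but neuron markers were nearly absent from it. Over 8 neuron markers (Snap25, Syt1, Rbfox3, Slc17a7, Gad1, Gad2, Tubb3 and Map2), the summed scaled TPM ran from 1.43 to 7.27 in HT-22 libraries and from 1652 to 2285 in hippocampus. In each HT-22 group 7 of the 8 had a mean below 1, and Snap25 and Rbfox3, which define mature neurons, were listed at 0 in every library. The 5 RNAs that hippocampus expressed and HT-22 cells lacked were thus low where neuron markers were low, and the part of cell type in this was not tested.

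When all 31 libraries were scaled together, the Neat1 median was 231 in HT-22 cells against 8.94 in hippocampus, a ratio of 25.9, and the ranges (166 to 389 against 3.94 to 20.3) did not overlap. For Malat1 the ratio of medians was 1.06, for Gas5 0.769 and for Pvt1 1.26. All 4 ratios depend on the scaling. On mean TPM as deposited they were 49.7 for Neat1, 2.01 for Malat1, 1.36 for Gas5 and 2.67 for Pvt1. The 2 systems differ in everything from cell type to culture, so the ratios are given as descriptions with no test.

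The libraries differed in depth, scaling, sex and tissue markers. Relative depth, read from the ratio of coverage to FPKM, was 1.42 to 3.04 for the hippocampus libraries and 0.724 to 2.60 for those of the cell line. On the TPM scale the median gene moved by 0.60 (log2) for APP against Ctrl at 6 months and fell by 0.62 for anti-Hsf1 against scramble under peptide 42, so all changes below use scaled TPM, where the median change of all genes lay within 0.02 of 0. Xist was at 71.2 to 138 scaled TPM in all APP libraries and in Ctrl at 3 months (91.5 and 92.4) and at no more than 0.522 in Ctrl at 6 and 12 months. Ddx3y, a Y-linked gene, was at 18.6 to 28.3 in those 2 Ctrl groups and at no more than 0.0795 elsewhere, so genotype and sex cannot be told apart at 6 and 12 months. In Ctrl, age and sex cannot be told apart between 3 months and the later ages. The genotype by age interaction, taken against 3 months, carries the same limit. The 3 APP libraries at 3 months also differed in tissue markers, with summed thalamus markers of 319, 97.2 and 25.6 scaled TPM against 14.9 to 87.8 in the other APP libraries.

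The first question was whether any of the RNAs differed between APP and Ctrl hippocampus at a given age. None of the 9 tested was called at 3, 6 or 12 months (limma on log2(scaled TPM + 1), Benjamini-Hochberg adjusted p below 0.05 over all 17840 genes tested). Over all genes, 0.297% were called at 3 months, 1.43% at 6 months and 0.454% at 12 months. At an unadjusted p below 0.05 the counts of the 9 were 0, 0 and 2, against 13.3%, 16.9% and 6.98% of all genes. The genotype by age interaction also called 0 of the 9 (adjusted p 0.35 to 0.719 in limma, 0 at an unadjusted p below 0.05), against 0.448% of all genes. On TPM as deposited 6 of the 9 were called higher in APP at 6 months, against 58.0% of all genes called on that scale, and 4 in the interaction, against 33.1%. That scale moves the median gene at 6 months by the 0.60 given above. Of the 6 called, it puts Rian, Snhg11 and Pvt1 on the other side of 0 (-0.17, -0.02 and -0.06 on scaled TPM). Gas5 and Neat1, not called, also had higher mean TPM as deposited in APP at 6 months (114.9 against 92.4 and 6.36 against 5.64). Their changes on scaled TPM were -0.37 and -0.44.

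At 3 and 6 months no difference was called, also where groups did not overlap. Meg3 was at 237, 240.1 and 168 scaled TPM in APP and at 294 and 261 in Ctrl at 3 months, a change of -0.38 (SE 0.23, 95% interval -0.87 to 0.11; adjusted p = 0.525 in limma). At 6 months it was at 235, 293 and 240.5 in APP and at 196, 232 and 234 in Ctrl, a change of 0.21 (SE 0.21; adjusted p = 0.662 in limma). The sign of the Meg3 change thus differed between these ages, with neither change called. The Meg3 groups did not overlap at either age, though the closest values at 6 months were 235 and 234. Gas5 did not overlap at 3 months, with 104, 84.2 and 95.6 in APP and 82.3 and 83.3 in Ctrl. Its change there was 0.19 (SE 0.24; adjusted p = 0.805 in limma). The share of all genes without overlap is not given for these ages. The 8 RNAs other than Meg3 had changes from -0.50 (Miat) to 0.24 (Rian) at 3 months and from -0.44 (Neat1) to 0.33 (Miat) at 6 months.

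At 12 months, 8 of the 9 were lower in APP than in Ctrl, with a median change of -0.21 against a median near 0 over all genes. Glial markers differed between the same libraries: of 6 microglia markers 2 were called higher in APP (C1qa by 1.72 and Csf1r by 0.93), and of 6 astrocyte markers 1 was (Gfap by 2.04). All 6 choroid plexus markers were above 0 (median 0.92) with none called by limma and 2 at an unadjusted p below 0.05. The part of these markers in the changes of the 9 RNAs was not tested.

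Mirg was at 11.4, 14.3 and 11.9 scaled TPM in APP and at 24.2, 14.7 and 16.3 in Ctrl. On scaled TPM the APP libraries were all below the Ctrl libraries, but the closest pair, 14.3 and 14.7, nearly met. On TPM as deposited the groups overlapped, with 11.3, 14.4 and 12.4 in APP and 20.9, 11.98 and 17.9 in Ctrl. They also overlapped on levels from coverage with 1 length per gene, at 11.4, 14.8 and 12.8 in APP and 22.5, 13.7 and 17.3 in Ctrl. The Mirg change was -0.50 (SE 0.18, 95% interval -0.88 to -0.11; unadjusted p = 0.0148 and adjusted p = 0.476 in limma).

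Meg3 was at 166, 210.1 and 185 scaled TPM in APP and at 277, 175 and 344 in Ctrl at 12 months. The groups overlapped, and 1 Ctrl library (175) lay among the APP values. The Meg3 change was -0.45 (SE 0.21; adjusted p = 0.685 in limma). Snhg11 showed the same layout, with 108, 109.7 and 120.1 in APP against 180.4, 99.4 and 196 in Ctrl, and a change of -0.43 (SE 0.22; adjusted p = 0.776 in limma). The Ctrl library with the low Meg3 value was the one with the low Snhg11 value and the low Miat value (17.3, against 42.7 and 52.5).

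Gas5 was the second RNA whose 12-month groups did not overlap, at 104, 109 and 92.6 scaled TPM in APP and 134, 110.4 and 114 in Ctrl, a change of -0.23 (SE 0.21; adjusted p = 0.952 in limma). On scaled TPM the 2 of 9 without overlap compare with 15.5% of all genes tested. The closest Gas5 values, 109 and 110.4, nearly met. On TPM as deposited the Gas5 groups overlapped, with 103, 109.8 and 96.5 in APP and 116, 89.9 and 125 in Ctrl. They also overlapped on levels from coverage with 1 length per gene, at 102, 113 and 95.5 in APP and 135, 106 and 116 in Ctrl. At 6 months Gas5 on scaled TPM spread widely in Ctrl (173, 124 and 73.2) and hardly in APP (92.6, 84.7 and 92.9). Without the lowest of those Ctrl libraries, replicate 3, Gas5 was called lower in APP at 6 months (-0.69, adjusted p = 0.0372 in limma). The value thus depends on 1 library. Its direction depends on the scaling too: with all libraries, mean TPM as deposited was 114.9 in APP and 92.4 in Ctrl.

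**Figure D2:**
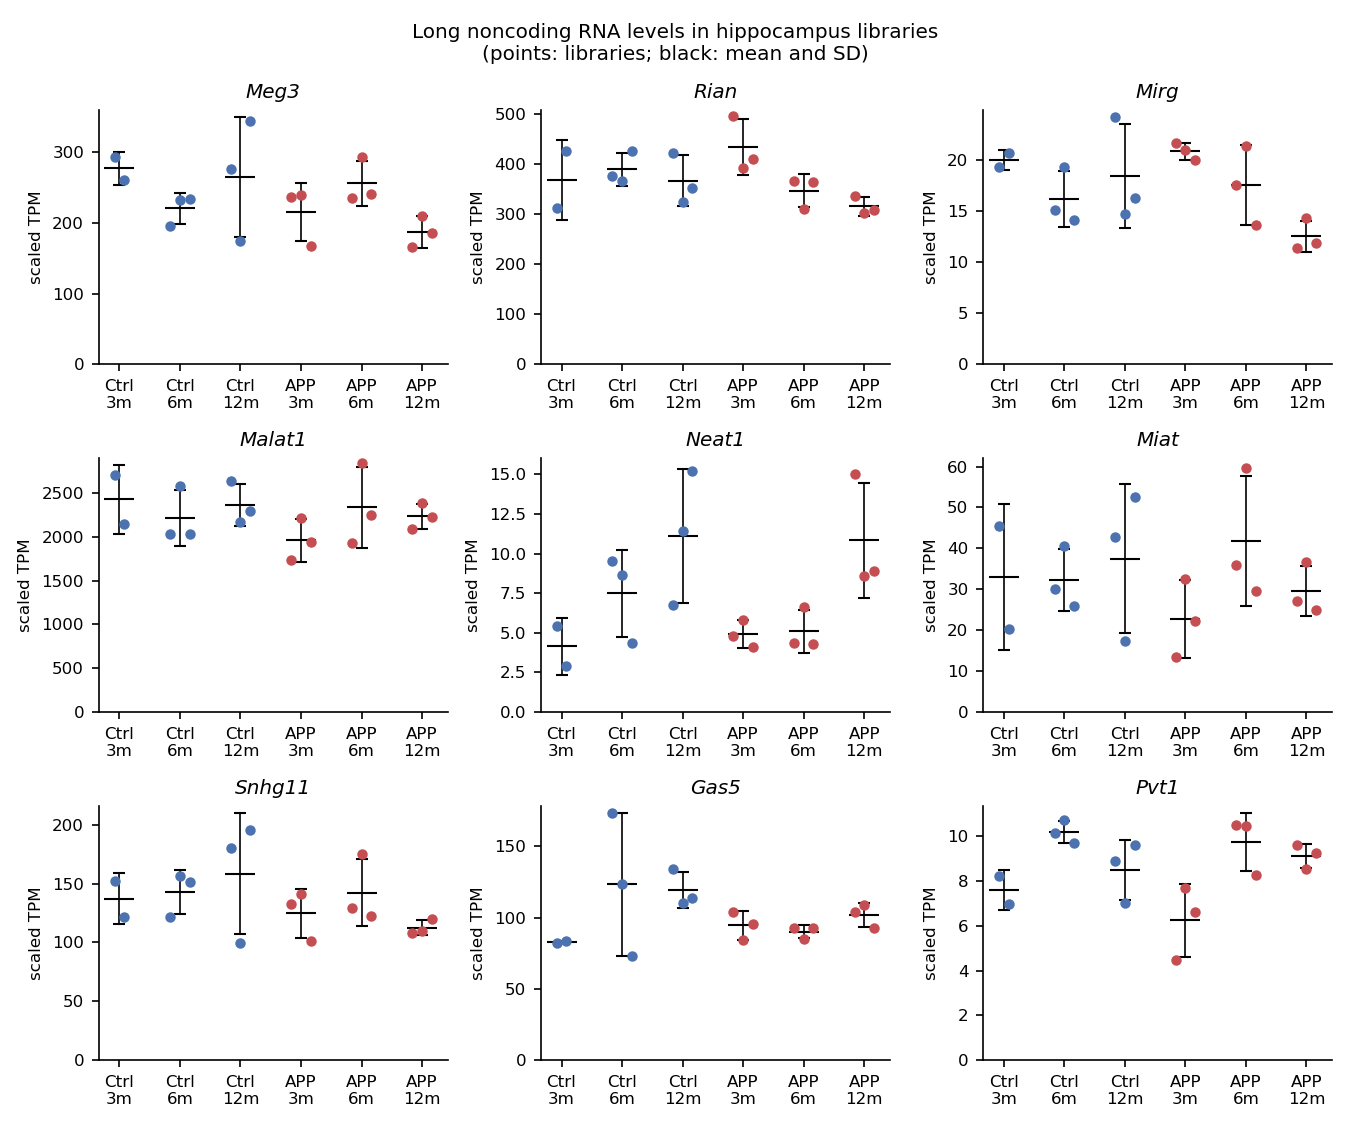
Scaled TPM (y axis, linear from 0) of 9 long noncoding RNAs in the 6 hippocampus groups, with Ctrl in blue, APP in red, 1 point for each library, and the mean and SD in black. Mirg lies at 11.4 to 14.3 in APP at 12 months and at 19.97 to 21.6 in APP at 3 months, while Meg3, Miat and Snhg11 spread most in Ctrl at 12 months.

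Age within APP mice gave the largest differences, and those groups share the Xist-positive pattern. Between 3 and 12 months 1 of the 9 RNAs was called, against 3.34% of all genes. Mirg fell from 21.6, 20.9 and 19.97 scaled TPM at 3 months to 11.4, 14.3 and 11.9 at 12 months, and the 6-month libraries spanned both levels (17.5, 21.4 and 13.6). The 12-month values were all below the 3-month values. The change of Mirg was -0.70 (SE 0.18, 95% interval -1.08 to -0.31, 0.616-fold; adjusted p = 0.0479 in limma).

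This call lay just inside the threshold. It was lost when any 1 of the 6 libraries was left out, with adjusted p from 0.0669 to 0.17 in limma and a change from -0.79 to -0.64, and it was lost on TPM as deposited (adjusted p = 0.0766). The direction was the same in all 16 alternatives.

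Rian, which lies before Mirg in the same imprinted region, was at 496, 392 and 409 scaled TPM at 3 months, at 366, 309 and 364 at 6 months and at 336, 301 and 308 at 12 months in APP mice. All 6 later values were below all 3 values at 3 months. The change of Rian was -0.45 at 12 months (SE 0.14; adjusted p = 0.11 in limma) and -0.32 at 6 months (SE 0.14; adjusted p = 0.252 in limma). On TPM as deposited the 6-month change was 0.013, so its direction depends on the scaling. Meg3, which lies before Rian in the region, was at 237, 240.1 and 168 at 3 months, 235, 293 and 240.5 at 6 months and 166, 210.1 and 185 at 12 months. Its values overlapped between 3 and 12 months, with a change of -0.19 (SE 0.21; adjusted p = 0.727 in limma). From 6 to 12 months the change of Meg3 was -0.45 (SE 0.21; adjusted p = 0.431 in limma).

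Neat1 and Pvt1 lay on the other side. Neat1 was at 4.79, 5.83 and 4.08 scaled TPM at 3 months, 4.36, 6.62 and 4.28 at 6 months and 15.0, 8.59 and 8.88 at 12 months in APP mice. Every 12-month library was above every 3-month library. The change of Neat1 from 3 to 12 months was 0.97 (SE 0.31, 1.96-fold; adjusted p = 0.114 in limma) and from 6 to 12 months 0.94 (SE 0.31; adjusted p = 0.254 in limma).

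In Ctrl mice Neat1 was at 5.41 and 2.89 at 3 months, 9.50, 8.62 and 4.34 at 6 months and 6.76, 11.4 and 15.2 at 12 months, and the 12-month groups of the genotypes overlapped (change -0.01, SE 0.31; adjusted p = 0.999 in limma). From 6 to 12 months the Ctrl change of Neat1 was 0.51 (SE 0.31; adjusted p = 0.826 in limma). In that Ctrl comparison 0 of the 9 RNAs were called by limma, 0 had an unadjusted p below 0.05, and 0.0% of all genes were called.

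The Neat1 values differed along with the transcript length behind them. The length implied by the deposited coverage and FPKM ran from 8890 to 20772 bases for Neat1 in hippocampus, and the longest GENCODE M21 transcript has 20771 bases. The 5 libraries with the shortest implied lengths (8890 to 12063 bases) had Neat1 values of 8.62 to 15.2, the upper part of the range. The library with the highest APP value (15.0) had an implied length of 11823 bases, while the other 12-month APP libraries (8.59 and 8.88) had 20325 and 19820 bases. When the level was computed from coverage with 1 length for every library, the 12-month APP values were 11.5, 11.3 and 11.4 and the 3-month values 6.41, 7.59 and 3.62. Ctrl at 12 months was at 8.55, 6.80 and 11.3 on that scale, where 2 of the 3 libraries lay below all APP libraries of that age. Between the genotypes at 12 months, Neat1 was not called by limma on that scale. From 3 to 12 months in APP mice Neat1 was called on it (0.90, adjusted p = 0.0358 in limma), and so was Mirg (-0.61, adjusted p = 0.0338 in limma). That scale was added after the data were seen. The implied length is computed from gene-level values and is not a measured isoform. FPKM is the divisor in it, so a short length beside a high level follows in part from the computation. In HT-22 cells the implied length stayed between 20248 and 20776 bases.

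Pvt1 was at 4.47, 7.68 and 6.61 scaled TPM at 3 months, 10.5, 10.5 and 8.28 at 6 months and 9.61, 8.55 and 9.26 at 12 months in APP mice, so that all 6 later values were above the 3 early ones. The change of Pvt1 was 0.59 at 6 months (SE 0.16; adjusted p = 0.0689 in limma) and 0.51 at 12 months (SE 0.16; adjusted p = 0.11 in limma). Without replicate 1 of APP at 3 months, the lowest library, these changes were 0.39 and 0.32 (adjusted p = 0.221 and 0.328 in limma), and without replicate 2 the 6-month change was called (0.73, adjusted p = 0.0367 in limma). On the scale from coverage with 1 length, Pvt1 was at 4.77, 9.92 and 6.497 at 3 months, 10.1, 9.64 and 7.998 at 6 months and 8.80, 8.36 and 9.63 at 12 months. The groups overlapped there, and the changes were 0.39 and 0.35.

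Over the 9 RNAs, 4 did not overlap between 3 and 12 months in APP mice (Rian and Mirg lower, Neat1 and Pvt1 higher) and 22.0% of all genes tested did not. Between 3 and 6 months 2 of 9 did not overlap (Rian and Pvt1), against 20.3% of all genes. In that comparison 0 of the 9 were called by limma and 3 had an unadjusted p below 0.05, against 2.16% of genes called and 18.7% below 0.05. Between 6 and 12 months 0 were called and 3 had an unadjusted p below 0.05 (Neat1, Mirg and Meg3), against 0.527% and 11.3%. The comparisons among APP ages share libraries, so they are not independent of each other.

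From lowest to highest over the 17 libraries, Neat1 varied 5.26-fold and Miat 4.47-fold, and the mean spread within groups was widest for Miat (coefficient of variation 39.7%). Miat was at 13.3, 32.4 and 22.3 scaled TPM at 3 months, 36.0, 59.7 and 29.5 at 6 months and 27.1, 36.6 and 25.1 at 12 months in APP mice, with overlap at each step and a 6-month change of 0.87 (SE 0.41; adjusted p = 0.267 in limma). Snhg11 was at 133, 141 and 101 at 3 months, 129, 175 and 122 at 6 months and 108, 109.7 and 120.1 at 12 months in APP mice.

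Malat1 and Rian varied least over the 17 libraries (1.64-fold and 1.65-fold). Malat1 was at 1729, 2217 and 1939.8 scaled TPM at 3 months, 1926, 2839 and 2242 at 6 months and 2092, 2379 and 2226 at 12 months in APP mice, and at 2630.2, 2167 and 2288 in Ctrl at 12 months. All these groups overlapped, and the changes of Malat1 between ages and genotypes lay between -0.30 and 0.24 with no call on scaled TPM.

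**Figure D3:**
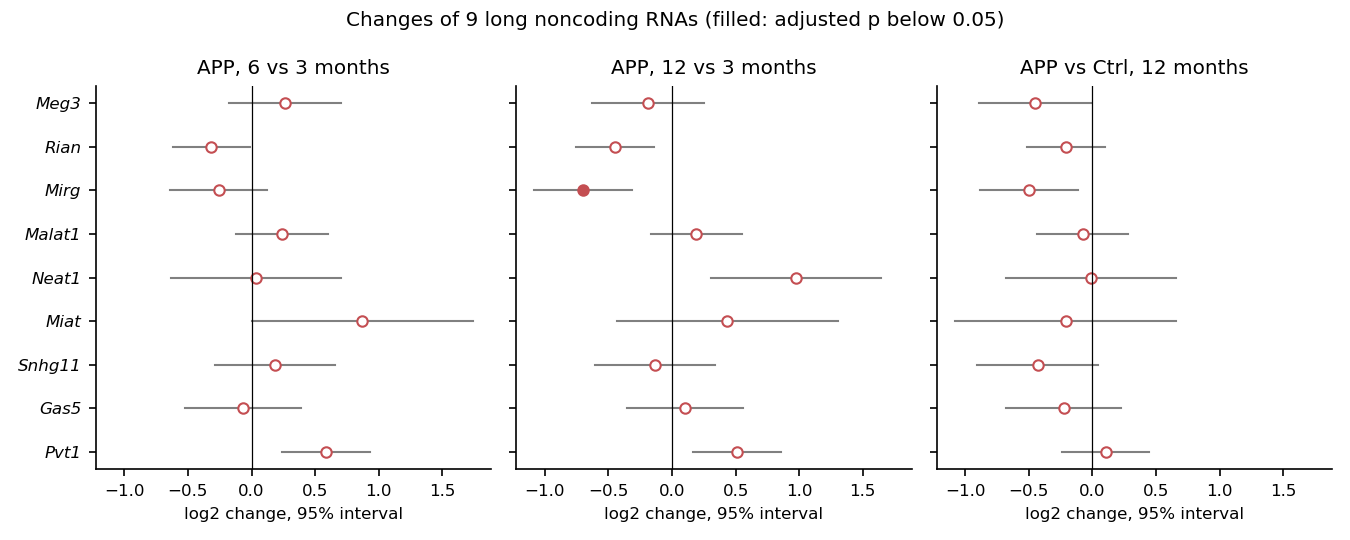
Log2 changes (x axis) of 9 long noncoding RNAs with 95% intervals (grey lines) for APP at 6 against 3 months, APP at 12 against 3 months and APP against Ctrl at 12 months, with filled points for adjusted p below 0.05. Only Mirg at 12 against 3 months is filled, at -0.70, and Rian, Neat1 and Pvt1 have intervals off 0 in that panel.

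Other markers moved with age in the same APP libraries. All 6 oligodendrocyte markers were lower at 6 than at 3 months and called, and 5 of 6 were called lower at 12 than at 3 months, with summed levels of 1487 to 2466 scaled TPM at 3 months, 826 to 1036 at 6 months and 1049 to 1183 at 12 months. All 6 microglia markers were above 0 in change from 3 to 12 months, 3 of them called (summed level 70.9 to 76.9 against 164 to 207). Of 6 astrocyte markers 4 were above 0 and 2 below (median 0.25), and the 1 called was Gfap, higher by 2.43 (SE 0.30; adjusted p = 0.00115 in limma). Summed striatum markers were at 50.2 to 173 at 3 months and 33.5 to 43.7 at 12 months, with 2 of 6 called lower. The summed immediate-early genes, which neurons switch on with activity, were at 98.5, 352 and 351 at 3 months and 88.3 to 96.9 at 12 months, with 2 of 8 called lower. All 6 choroid plexus markers were above 0 in change from 6 to 12 months (median 1.502), with summed levels of 38.3 to 908 at 6 months and 1433 to 1659 at 12 months. None of the 6 was called by limma, and 6 had an unadjusted p below 0.05. No marker of these lists was at 0 in all libraries of a group.

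The part of these cell type and tissue markers in the changes of Mirg, Rian, Meg3, Neat1 and Pvt1 was not tested. In bulk tissue, fewer cells of a type and less RNA per cell cannot be told apart. Without replicate 1 of APP at 3 months, which had the highest thalamus and striatum sums, the 12-month changes were -0.67 for Mirg, 0.96 for Neat1, -0.35 for Rian and 0.32 for Pvt1, and none of them was called.

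The small RNA genes inside Mirg and Rian were measured apart from their hosts in the same tables. Of the 14 microRNA genes inside Mirg, 11 passed the filter, and 10 of these had a change below 0 from 3 to 12 months in APP mice, with a median of -0.52 against -0.70 for Mirg and a median near 0 for all genes. Mir668 was called (-1.71, adjusted p = 0.0495 in limma), and its neighbour Mir485 was at -1.84 (adjusted p = 0.252). Mir453 was at -1.03 (adjusted p = 0.142) and Mir382 at -0.88 (adjusted p = 0.557), both in the first part of the host. Mir3072, near the end of the host, was the exception at 0.74 (adjusted p = 0.561). Mir668, Mir485 and Mir3072 were picked after their values were seen.

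Inside Rian, 8 of 17 small RNA genes passed the filter and 7 had a change below 0, with a median of -0.38 against -0.45 for the host. Mir341 was at -0.57 (adjusted p = 0.466 in limma), Mir1188 at -0.29 (adjusted p = 0.8) and the snoRNA gene Gm23600, the most abundant of the set at 35.7 TPM, at -0.29 (adjusted p = 0.559). The long noncoding gene Gm26945, annotated within the span of Rian, was called lower at 12 than at 3 months (-0.81, adjusted p = 0.0148 in limma). It was named because its span lies inside Rian, and reads of the 2 genes may be shared between them.

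Reads of a host and of the RNAs inside it overlap, so these counts are not independent of the host's own value. Between the genotypes at 12 months, 8 of the 11 tested microRNA genes in Mirg and 6 of the 8 small RNA genes in Rian were below 0, with medians of -0.39 and -0.23 and no call. In HT-22 cells none of the small RNA genes inside Meg3, Rian or Mirg passed the filter, as their hosts did not.

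**Figure D4:**
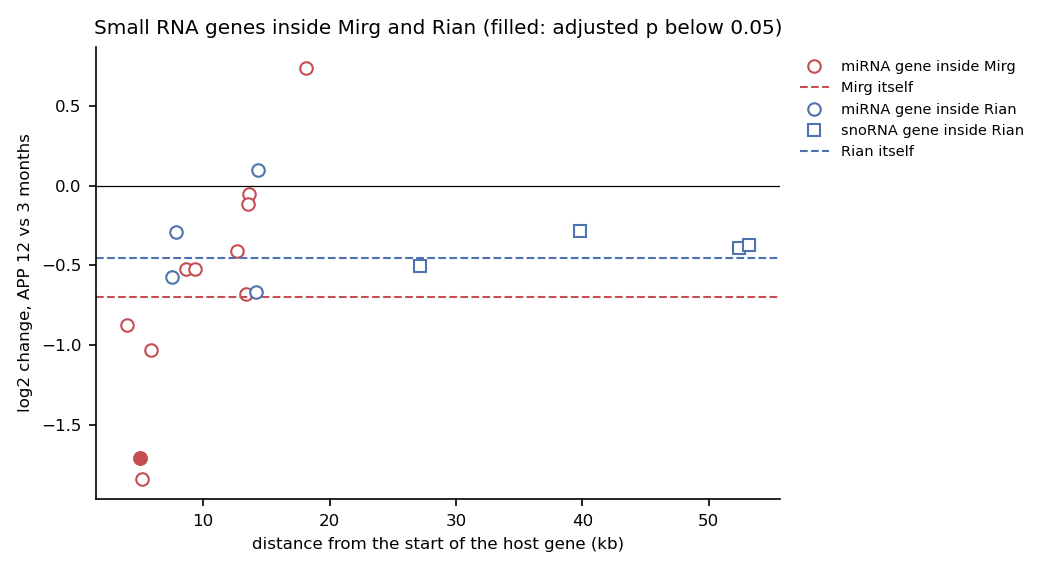
Log2 change from 3 to 12 months in APP mice (y axis) of the microRNA (circles) and snoRNA (squares) genes inside Mirg (red) and Rian (blue) by distance from the host's start in kb, with the host's own change as a dashed line and filled points for adjusted p below 0.05. Nearly all points lie below 0, Mir668 at -1.71 is the filled one, and Mir3072 at 0.74 lies highest.

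Gas5 holds 10 snoRNA genes, 5 of them tested in hippocampus. From 3 to 12 months in APP mice 1 of the 5 had a change below 0, with a median of 0.63, and Gas5 itself was at 0.10 (SE 0.21; adjusted p = 0.872 in limma). In HT-22 cells 7 of the 10 were tested. None was called under either peptide, and their median change with anti-Hsf1 was -0.01 under peptide 42 and -0.10 under R.

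Genes of the same pathways were read from lists of related proteins and hosts. Of the 4 coding genes of the Dlk1-Dio3 region (Dlk1, Rtl1, Dio3 and Begain), 0 were called by limma in any of 7 mouse comparisons (0 to 1 at an unadjusted p below 0.05), and their median change from 3 to 12 months in APP mice was -0.11. Of 10 genes of the imprinted gene network, 1 was called lower at 12 than at 3 months: Peg3, a paternally expressed zinc finger gene (-0.71, SE 0.16; adjusted p = 0.0237). Of 4 partners of Miat in splicing, Celf3 was called lower in APP than in Ctrl at 3 months (-0.74, SE 0.14; adjusted p = 0.0462). None of 10 paraspeckle proteins, 11 nuclear speckle and splicing factors, 8 nonsense-mediated decay factors (which degrade spliced Gas5), the tested other snoRNA hosts (14 in mouse and 16 in HT-22) or the tested coding neighbours (7 and 6) was called by limma in 7 mouse or 5 HT-22 comparisons. At an unadjusted p below 0.05 each of these lists had 0 to 3 genes in any 1 comparison. The largest median change among the paraspeckle list in the APP ages was -0.10, from 6 to 12 months, where Neat1 itself was at 0.94.

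Across the 17 hippocampus libraries, the RNAs did not vary as 1 group. Meg3 followed Snhg11 (Pearson r 0.87, Spearman rho 0.82), and no gene of the 17840 was closer to Meg3. Malat1 followed Miat (r 0.78, rho 0.74) and Miat followed Pvt1 (r 0.74, rho 0.59). Within the imprinted region, Meg3 with Mirg had an r of 0.52, Rian with Mirg 0.48 and Meg3 with Rian 0.09. Rian went against Malat1 (r -0.56, rho -0.58) and Neat1 (r -0.52, rho -0.53), and for Pvt1 the r of -0.52 came with a rho of -0.26.

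The genes most like Gas5 over these libraries were the predicted gene Gm14303 (r 0.88), the pseudogene Rps15a-ps7 (r 0.87) and the ribosomal protein gene Rpl37 (r 0.87), and for Neat1 the tRNA kinase gene Pstk (r 0.85). The libraries share depth, groups and scaling, so these values describe 17 points and carry no test.

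In HT-22 cells the design asked whether amyloid beta 42 or the LNA against Hsf1 changed the 4 RNAs that the line expressed. None of the 4 was called in any comparison, and few genes were called at all: 0.0% for 42 against R under scramble LNA, 0.0% for 42 against R under anti-Hsf1, 0.0% for anti-Hsf1 against scramble under R, 0.0231% for anti-Hsf1 against scramble under 42, and 0.0% for the interaction. At an unadjusted p below 0.05 in limma the counts of the 4 were 2, 1, 1, 2 and 3, against 4.95%, 4.65%, 3.65%, 8.99% and 5.14% of all genes. Hsf1 itself was at 43.4 to 51.5 scaled TPM under 42 with the LNA against it and at 48.8 to 71.6 with scramble, and at 43.0 to 52.5 against 43.0 to 61.7 under R, so the groups overlapped under both peptides.

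Of the 14 libraries 3 stood apart on the first principal component: replicates 3 and 4 of 42 with scramble and replicate 4 of R with scramble. Their summed immediate-early genes were at 946, 1073 and 1139 scaled TPM against 64.0 to 107 in the other 11. All of them belong to scramble groups, so results are given with and without them.

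Neat1 was at 328, 344, 368 and 265 scaled TPM under R with scramble and at 518, 428 and 561 under R with anti-Hsf1. All 3 anti-Hsf1 libraries were above all 4 scramble libraries. The change of Neat1 was 0.62 (SE 0.16, 1.54-fold; unadjusted p = 0.00212 and adjusted p = 0.959 in limma), and 0.52 without the libraries that stood apart (adjusted p = 0.947). Neat1 was the 1 of 4 whose groups did not overlap, against 5.96% of all genes.

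Under peptide 42 Neat1 was at 386, 296, 335 and 238 with scramble and at 302, 302 and 293 with anti-Hsf1. These groups overlapped, and the change was -0.05 (SE 0.16; adjusted p = 0.925 in limma). Under anti-Hsf1 Neat1 was lower with 42 than with R (-0.74, SE 0.18; unadjusted p = 0.000986 and adjusted p = 0.811), with no overlap. The other RNA without overlap there was Pvt1 (-0.28, SE 0.18; adjusted p = 1), so that 2 of 4 compare with 18.3% of all genes. The difference of the LNA effects between peptides was -0.67 for Neat1 (SE 0.23; unadjusted p = 0.0124 and adjusted p = 0.82 in limma). On TPM as deposited, where the median gene also shifted, Neat1 was called in both comparisons with 42 and anti-Hsf1 and in the interaction, against 24.3%, 50.7% and 25.3% of all genes called on that scale.

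Gas5 was at 97.4, 148, 85.9 and 88.5 scaled TPM under 42 with scramble, at 183, 184 and 131 under 42 with anti-Hsf1, at 154, 168, 138 and 128 under R with scramble and at 126, 165 and 164 under R with anti-Hsf1. The low values were 3 of the 4 libraries of 42 with scramble, of which 2 stood apart. The Gas5 difference with anti-Hsf1 under 42 was 0.68 (SE 0.19; unadjusted p = 0.00388 and adjusted p = 0.421 in limma), and 0.45 without those libraries (adjusted p = 0.662). On TPM as deposited the value was -0.04, so its direction depends on the scaling. For 42 against R under scramble the change of Gas5 was -0.51 (SE 0.18; adjusted p = 0.929), and -0.35 without the libraries that stood apart.

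Pvt1 was at 19.8, 22.7, 35.5 and 34.0 scaled TPM under 42 with scramble and at 17.2, 18.1 and 18.5 under 42 with anti-Hsf1, with no overlap between the groups, the 1 of 4 there against 8.4% of all genes. The 2 high values belong to libraries that stood apart, while the other such library, of R with scramble, had 21.6, within the range of its group (19.1 to 22.2). The change of Pvt1 was -0.57 (SE 0.17; unadjusted p = 0.00553 and adjusted p = 0.421 in limma) and -0.23 without those libraries (adjusted p = 0.656). For 42 against R under scramble it was 0.38 (SE 0.16; adjusted p = 0.953), and 0.05 without them. Myc, the neighbour of Pvt1, ranged from 41.2 to 186 under 42 with scramble and from 40.8 to 160.4 under R with scramble, against 34.1 to 58.0 in the anti-Hsf1 groups.

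**Figure D5:**
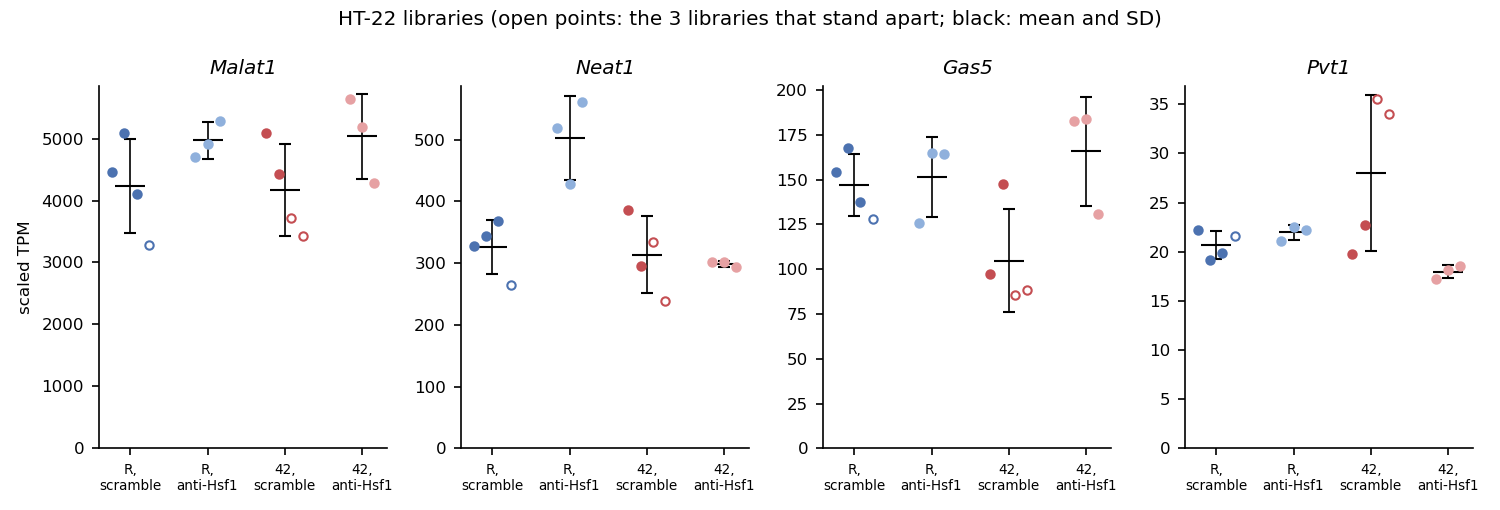
Scaled TPM (y axis, linear from 0) of Malat1, Neat1, Gas5 and Pvt1 in the 4 HT-22 groups, 1 point for each library, with the mean and SD in black and open points for the 3 libraries that stand apart. Neat1 is highest under R with anti-Hsf1 (428 to 561), and the high Pvt1 values of 35.5 and 34.0 are open points.

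Malat1 was at 5095, 4432, 3719 and 3434 scaled TPM under 42 with scramble, 5637, 5189 and 4284 under 42 with anti-Hsf1, 4466, 5093, 4101 and 3279 under R with scramble and 4703, 4918 and 5289 under R with anti-Hsf1. The lowest value of each scramble group came from a library that stood apart. Its changes ranged from -0.02 to 0.28 and none was called (adjusted p from 0.59 to 1 in limma). Over the 14 libraries Gas5 went against Pvt1 (r -0.73, rho -0.52) and with Malat1 (r 0.66, rho 0.69). These values include the 3 libraries that stood apart and carry no test.

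The library kit named in the labels does not mark strand. Genes on the opposite strand overlap some of the 10: Zbtb37 overlaps the start of Gas5 (6.12 TPM in hippocampus against 102 for Gas5), Gm26953 overlaps Miat (0.908 against 33.6 TPM) and the pseudogene H2afy3 lies within Pvt1 (0.795 against 8.73 TPM, and 4.95 against 23.3 TPM in HT-22 cells). Reads from the stretches that the genes of a pair share cannot be told apart by strand.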

How the data were processed

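Long RNA was measured in 17 mouse and 14 HT-22 libraries, made after fragmentation and ribosomal RNA depletion, per the labels' protocols. TPM and FPKM were computed by the authors for each gene and library, per the file headers, and the coverage signal was deposited as mean read depth. The submitters' processing notes list FastQC, cutadapt 1.18, BWA 0.7.17, HISAT2 2.1.0, bedtools 2.26.0, StringTie 1.3.4d and the builds mm10 and GRCm38. Which tool made which table was not given in the sources used here. The tables used here hold no read counts, so no count model was run and depth is known only relatively.

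TPM was summed per gene identifier and divided by median-of-ratios size factors, separately in mouse and HT-22. Genes averaging 1 TPM or more (17840 and 17291) were tested with limma 3.58.1 in R 4.3.3 (trend, robust) on log2(scaled TPM + 1), which understates changes of low genes. All groups of a system entered 1 fit, with Benjamini-Hochberg adjustment over all genes and a threshold of 0.05. The code was tested on simulated data. The 10 genes are described in every comparison. Other genes are named where they belong to a list and were called (at most 3 per list), lie inside a host, overlap it, or were among the 3 most alike by Pearson r. Exceptions picked after seeing values are named as such.

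The 10 genes and the lists were chosen with earlier results of these data known. Alternatives were TPM as deposited, quantile normalization, pseudocounts of 0.1 and 5, no filter, a mean TPM of at least 5, array weights, a replicate block, the compared groups alone and leaving out each library. Levels from coverage with 1 length per gene and HT-22 fits without the 3 libraries apart were added after seeing the data. Sequences come from RefSeq on GRCm38.p6, and values and figures were made with Python 3.11.15 and pandas 2.3.3.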

Additional observations from a re-analysis of the deposited data

How the results depend on the processing

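Of 233 recounts of called RNAs, 212 were within 1.5 times the reported count and 21 were not. The 373 recomputed changes cover only RNAs and comparisons with an unadjusted p below 0.05 in limma in the reported fit. Of these 373, 350 kept direction and side of the threshold, 11 lost the call, 9 gained one and 3 reversed. Reversals of other changes are not counted there, such as those of Rian, Snhg11 and Pvt1 between the genotypes at 6 months on TPM as deposited. All 11 losses were of Mirg at 12 against 3 months in APP mice. The count of 1 there became 0 on TPM as deposited, with quantile normalization, with a pseudocount of 0.1 (adjusted p = 0.0509 in limma), with no filter and with the compared groups alone, was 0 whichever library was left out, and became 2 with coverage and 1 length per gene. Whether same-numbered libraries are paired is not known. Same-number correlations ran from -0.15 to 0.23 in mouse (3 of 40 over 0.1) and from -0.22 to 0.57 in HT-22 (3 of 19). Among pairs with different numbers, 8 of 80 in mouse and 6 of 54 in HT-22 were over 0.1. Such correlations cannot settle the pairing. With a replicate block the Mirg call held (adjusted p = 0.0456 in limma).

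TPM as deposited, where the median gene shifts, moved several counts. It called 58.0% of all genes and 6 RNAs for APP against Ctrl at 6 months (Meg3, Rian, Mirg, Malat1, Snhg11 and Pvt1, all higher), 1 for APP at 6 against 3 months, 4 in the genotype by age interaction, and 2 each for 42 against R under anti-Hsf1, for anti-Hsf1 against scramble under 42 and for the HT-22 interaction. Among the 373 recomputed changes it also reversed Rian at 6 against 3 months (0.013) and Gas5 with anti-Hsf1 under 42 (-0.040) and in the interaction (-0.12). Array weights called 2 for anti-Hsf1 against scramble under 42 (Gas5 0.86 and Pvt1 -0.78). Leaving out 1 library gave 0 to 1 for APP against Ctrl at 6 months and for APP at 6 against 3 months. The cause was not tested for any of these. Depth is known only relatively, so no detection limit could be set.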

Other observations

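Within the Ctrl mice at 12 months, 1 of 3 libraries was low for Meg3, Snhg11 and Miat together (175, 99.4 and 17.3 scaled TPM) and another was high for all of them (344, 196 and 52.5). Miat was most like 3 other noncoding or predicted genes over the 17 hippocampus libraries, Gm12064 (Pearson r 0.94), Grin1os (r 0.93) and Gm42822 (r 0.92). Malat1 was most like the predicted gene Gm13268 (r 0.84) and Emx2os (r 0.84). In HT-22 cells Gas5 was most like Atp6v1g1 (r 0.97) and Malat1 like Rab14 (r 0.96), each over 14 libraries. H19 ranged from 0.0144 to 0.265 scaled TPM in APP at 12 months and from 0.0532 to 0.947 in APP at 3 months, below the level that was tested. Igf2, its imprinted neighbour, was at 21.9 to 51.8 in APP at 12 months and at no more than 0.592 in HT-22 cells. Gm27505, a small annotated RNA gene inside Neat1 that was picked after its values were seen, had a median of 2.70 scaled TPM in HT-22 cells with a range from 1.67 to 1538. Its change with anti-Hsf1 under 42 was -8.08 (adjusted p = 0.293 in limma). Its reads overlap those of Neat1.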
